A study of Mus musculus with 36 samples.

Results

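The genes described here are 9 members of glycogen metabolism in mouse: Gys2, Gbe1, Ugp2 and Pygl, which encode enzymes, and Ppp1r3b, Ppp1r3c, Ppp1r3d, Ppp1r3e and Ppp1r3g, which encode subunits that carry protein phosphatase 1 to glycogen. They were taken by name from a list, 9 of the 136300 features counted in liver and of the 32266 genes valued in mouse embryonic fibroblasts (MEFs). Ppp1r3g was put on the list because of its levels across the liver groups. Its liver values are therefore given as a description, with no test.

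Glycogen is the branched glucose polymer in which the liver stores sugar after a meal and from which it releases glucose during a fast. UDP-glucose pyrophosphorylase makes the activated glucose, glycogen synthase adds it to a chain, the branching enzyme moves stretches of chain to new branch points, and glycogen phosphorylase removes glucose units as glucose 1-phosphate. Protein phosphatase 1 activates glycogen synthase and inactivates phosphorylase by removing phosphate, and the targeting subunits decide where on glycogen it acts. In liver the subunit encoded by Ppp1r3b is the best known of them, and Ppp1r3g is known as a subunit whose message follows the fasting and feeding cycle.

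Liver RNA came from 4-week-old male mice killed at zeitgeber time 14, either fed or fasted for 24 h. Wild-type mice were compared with mice labelled Ttr CRE+, Vps15f/f, a Cre recombinase named after Ttr, a gene of hepatocytes, together with floxed alleles of Vps15. Pik3r4 encodes Vps15, which works with the class 3 phosphoinositide 3-kinase Vps34, and the livers were flash-frozen and powdered whole. The 4 liver groups held 3 libraries each. The 8 MEF groups held 3 libraries each, from Vps15f/f cells given an adenovirus with GFP (labelled wild type) or with CRE (labelled knockout). MEFs were kept in high-glucose medium without serum (basal), without methionine for 4 h (deprived), or without it for 4 h and then with it for 1 h or 4 h (replenished).

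Stretches of DNA before the start sites of Ppp1r3g, Ppp1r3c and Pygl are shown because these genes cover the patterns met below: a message seen in fasted wild-type liver, and messages low in labelled knockout liver. They are RefSeq sequences of build GRCm38.p6, 5′ to 3′ on the strand of the gene, with positions counted back from the RefSeq start site. Parts that overlap exons of GENCODE M21 were left out. The stretches of Ppp1r3g and Pygl lie within the GENCODE bounds of these genes given below, so they may be introns of longer transcripts. That of Ppp1r3c lies outside its gene. RefSeq promoter windows were found for 6 of the 9 members, and Ppp1r3b, Ppp1r3e and Gys2 had none. Capitals mark matches, on either strand, to TGACG (core of the cAMP response element), CACGTG (an E-box) or AGGTCA (the hexamer of nuclear receptor sites).
Ppp1r3g, chr13:35967656-35967852, plus strand: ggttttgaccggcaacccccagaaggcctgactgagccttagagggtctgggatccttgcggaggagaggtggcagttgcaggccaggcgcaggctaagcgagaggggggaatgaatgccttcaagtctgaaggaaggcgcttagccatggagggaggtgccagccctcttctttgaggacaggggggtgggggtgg
Ppp1r3c, chr19:36736654-36736854, minus strand: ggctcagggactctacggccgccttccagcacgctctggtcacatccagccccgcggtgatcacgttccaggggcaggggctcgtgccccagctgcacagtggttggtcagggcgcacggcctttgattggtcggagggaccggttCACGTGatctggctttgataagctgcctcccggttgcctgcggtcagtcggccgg
Pygl, chr12:70227684-70227933, minus strand: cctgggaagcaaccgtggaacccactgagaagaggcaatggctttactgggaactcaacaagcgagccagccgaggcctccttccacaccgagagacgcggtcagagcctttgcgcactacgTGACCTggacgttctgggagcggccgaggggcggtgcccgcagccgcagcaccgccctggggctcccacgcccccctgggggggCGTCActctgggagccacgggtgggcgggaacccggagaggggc

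The Pygl stretch held TGACCT, the reverse complement of AGGTCA, at −128 and CGTCA, the reverse complement of TGACG, at −44. Ppp1r3c held CACGTG at −104. In the window of Ppp1r3g the only match was to TGACG, at −40, in transcribed sequence that is not printed. The window of Ppp1r3d, not shown, held TGACG at −222 and −68 and CACGTG at −226, and those of Ugp2 and Gbe1 held none of the motifs searched. Among 32851 RefSeq promoters searched over windows of the same length, 17.8% held TGACG, 14.02% AGGTCA and 6.02% CACGTG. The other motifs searched were GTAAACA (3.17% of promoters), TGTTCT (16.1%) and TATAAA (12.4%), and no member's window held them. A match describes letters only, and binding was not measured.

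Liver libraries held 9110836 to 12870944 counts. Levels are given as CPM, the count as a share of its library total scaled by the trimmed mean of M-values. Nothing in the labels says more of the replicates than that they are separate samples, so p-values measure the spread between these libraries. All 8 hepatocyte markers (among them Alb and Ttr) were detected in every liver group. Their summed level was 29373 to 30922 CPM in fed and 36457 to 37720 CPM in fasted wild-type libraries, against 12331 to 14023 CPM in fed and 13615 to 16029 CPM in fasted labelled knockout libraries. Summed macrophage markers ran the other way, at 957 to 1265, 310 to 434, 1738 to 1971 and 1649 to 1873 CPM in the same order. In a whole-tissue sample, fewer hepatocytes and less RNA per hepatocyte cannot be told apart. Pik3r4 stood at 21.2 ± 3.14, 22.3 ± 2.07, 24.0 ± 1.63 and 21.1 ± 2.87 CPM (SD, n = 3) in the same order. The whole-gene level thus gave no check of the genotype, since a shortened transcript would still be counted, and these livers are called labelled knockout or, for short, knockout.

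Ppp1r3g (chromosome 13, 35958839 to 35970388, plus strand; coordinates here and below from GENCODE M21, build mm10) had 0 counts in each of the 3 fed wild-type libraries. The fasted wild-type libraries had 466, 338 and 355 counts, or 60.1, 42.3 and 48.8 CPM. The fed labelled knockout libraries had 8.58, 2.54 and 8.84 CPM, and the fasted ones 5.60, 15.3 and 2.66 CPM. Fasted wild-type libraries were thus above all others, and both labelled knockout groups were above fed wild type and overlapped each other. Against a floor of 3 counts per fed wild-type library (0.315 CPM on average), the mean was at least 160-fold higher in fasted wild type, at least 21.1-fold higher in fed and at least 24.98-fold higher in fasted labelled knockout liver. The floor covers counting error only. In fasted wild type the mean of 50.4 ± 8.96 CPM (SD, n = 3) was 6.41 times that of fasted labelled knockout liver, 7.86 ± 6.63 CPM. Library b of the latter group weighs on both values: without it that group's mean was 4.13 CPM, at least 13.1-fold above the fed wild-type floor, and the fasted wild-type mean was 12.2 times it. An antisense gene lies on the opposite strand within the bounds of Ppp1r3g, with no exon in common.

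Ppp1r3b (chromosome 8, 35375739 to 35388139, plus strand), the chief liver targeting subunit, had 335, 342 and 412 CPM in fed wild-type liver, and was the highest of the 5 subunits per transcript length. It stood at 146, 222 and 210.1 CPM in fasted wild type, 35.8, 35.0 and 27.7 CPM in fed knockout and 11.7, 23.2 and 8.28 CPM in fasted knockout libraries. No library of a fed group overlapped the fasted group of the same label, nor a labelled knockout library a wild-type one. The message fell by 3.47 ± 0.28 (SE) on the log2 scale in fed labelled knockout against wild type, 11.1-fold lower, and by 3.74 ± 0.29 in fasted liver, 13.3-fold lower (edgeR quasi-likelihood adjusted p = 1.61e-07 and 5.41e-08). Fasting lowered it by 1.88 times in wild type (log2 −0.91 ± 0.26, adjusted p = 0.016) and by 2.27 times in labelled knockout liver (−1.18 ± 0.28, adjusted p = 0.0471). Both fasting calls rest on few libraries. The wild-type one was lost without fed library c (adjusted p = 0.0572) or fasted library a (0.0746), and the other without any of 5 of the 6 labelled knockout libraries (0.0797 to 0.20). The fasting changes of the 2 labels were not shown to differ (difference −0.27, approximate 95% interval −1.0 to 0.46).

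Ppp1r3c (chromosome 19, 36731731 to 36736653, minus strand) encodes the subunit also called protein targeting to glycogen. Its fed wild-type libraries spread widely, at 57.1, 107 and 64.9 CPM, above the fasted ones at 37.0, 45.6 and 55.7 CPM. Fed knockout libraries had 33.2, 44.5 and 23.0 CPM and fasted knockout libraries 12.6, 22.3 and 15.1 CPM. It was lower in labelled knockout liver by 1.18 ± 0.27 on the log2 scale when fed (edgeR adjusted p = 0.00204) and by 1.46 ± 0.28 when fasted (adjusted p = 0.000393), 2.27-fold and 2.76-fold. The fasting differences, −0.73 ± 0.27 in wild type and −1.01 ± 0.28 in labelled knockout liver, did not pass (adjusted p = 0.0586 and 0.0775). With DESeq2 both passed (adjusted p = 0.0332 and 0.0123).

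Ppp1r3e (chromosome 14, 54872669 to 54877550, minus strand) and Ppp1r3d (chromosome 2, 178411206 to 178414472, minus strand) encode further targeting subunits and were low in liver. Ppp1r3e stood at 7.10 ± 1.36 CPM (fed) and 5.49 ± 1.15 CPM (fasted) with the wild-type label and at 5.90 ± 0.55 and 6.20 ± 0.14 CPM with the knockout label (SD, n = 3), and its groups overlapped in every comparison. Its difference between labels was −0.27 in fed liver (approximate 95% interval −0.64 to 0.11) and 0.17 in fasted liver (−0.22 to 0.57), and neither passed. Ppp1r3d had only 3 to 24 counts per library. Its fed knockout libraries had 24 counts each, 1.65, 1.56 and 1.61 CPM, above the fed wild-type ones at 0.83, 0.98 and 0.92 CPM, but the log2 difference of 0.81 ± 0.38 missed the threshold (adjusted p = 0.0951), as did that of 1.00 ± 0.46 in fasted liver (adjusted p = 0.0756).

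**Figure D1:**
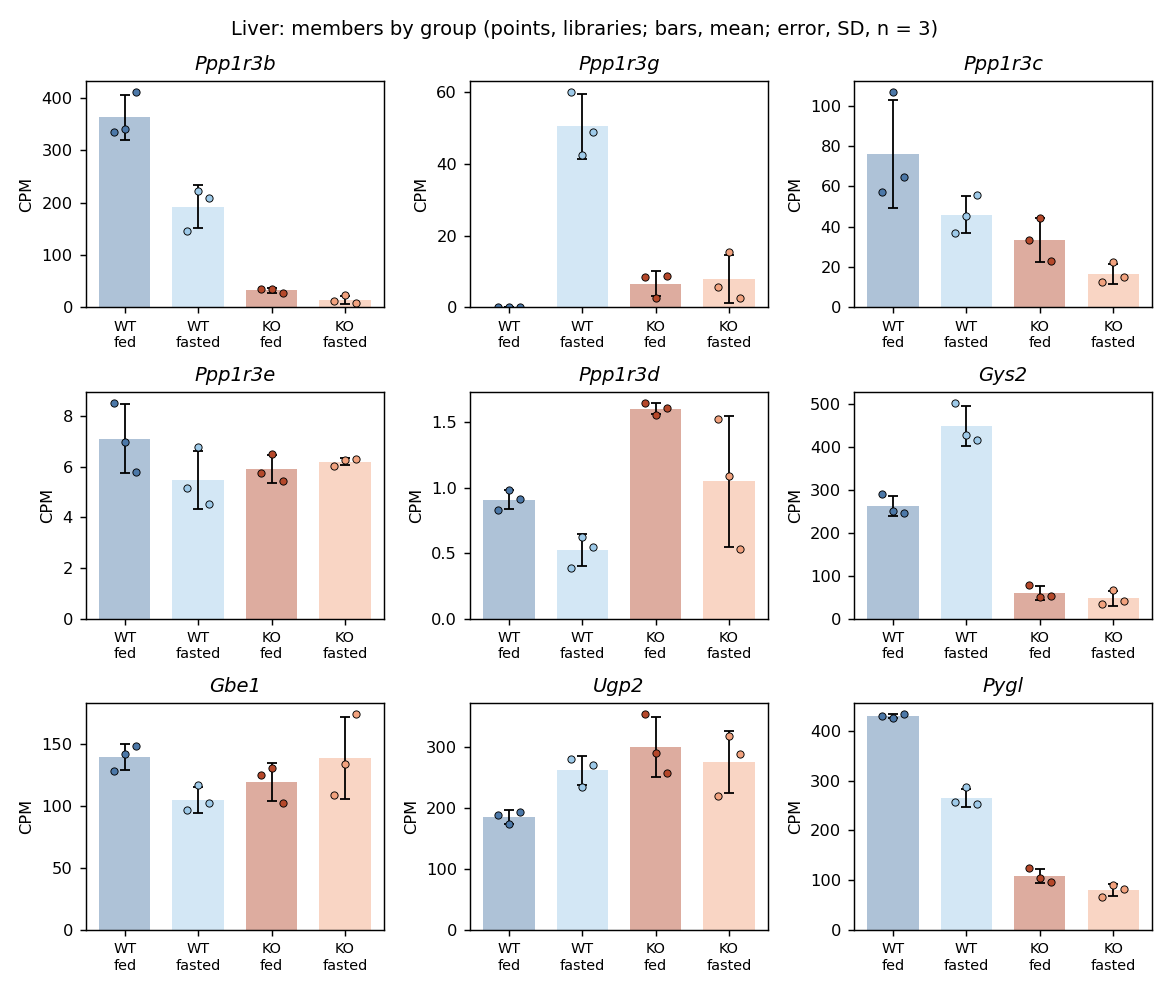
CPM of the 9 members (y axis, linear, from 0) in the 4 liver groups (x axis). Points are libraries, bars the mean and error bars the SD (n = 3). Ppp1r3g stands at 0 in fed and 50.4 CPM in fasted wild type, and Ppp1r3b, Gys2 and Pygl are low in both labelled knockout groups.

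The make-up of the targeting subunit messages differed between the groups. Levels were divided by the length in kb of the longest protein-coding transcript and summed over the 7 subunit genes, the 5 above with Ppp1r3a and Ppp1r3f, which were at 0.55 CPM or below in every library. The sum was 115 ± 11.03 CPM per kb in fed and 85.0 ± 8.95 in fasted wild type, 26.2 ± 3.93 in fed and 16.3 ± 6.29 in fasted knockout libraries (SD, n = 3). Of it Ppp1r3b made up 72.3 ± 7.03% (fed) and 51.3 ± 6.41% (fasted) with the wild-type label, and 28.6 ± 1.28% (fed) and 19.4 ± 3.44% (fasted) with the knockout label, and no groups overlapped. Ppp1r3c held the first place in both labelled knockout groups, at 46.3 ± 8.67% and 38.6 ± 6.52%, against 24.2 ± 7.10% and 19.8 ± 2.25% in fed and fasted wild type. Ppp1r3g, at 0% in fed wild type, made up 33.6, 19.96 and 22.4% in fasted wild-type libraries, 13.1, 3.62 and 17.0% in fed knockout and 17.7, 27.3 and 9.26% in fasted knockout libraries. Its share in fasted labelled knockout liver thus overlapped that in fasted wild type although its level did not. Ppp1r3e was a larger share, from 3.22 ± 0.94% in fed wild type to 21.2 ± 6.82% in fasted knockout liver, while its own level stayed within 4.54 to 8.52 CPM. These shares are a description, since Ppp1r3g entered them.

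**Figure D2:**
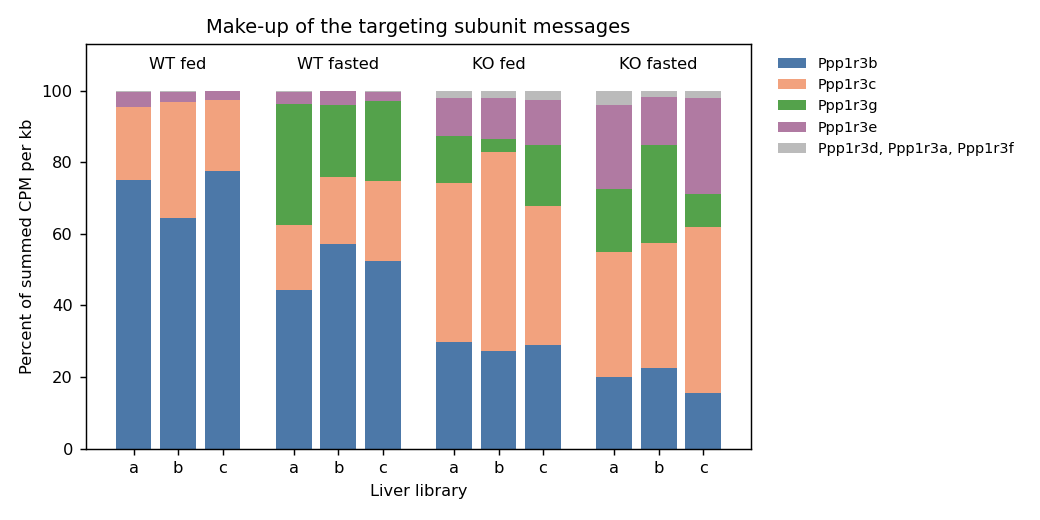
Share of each targeting subunit gene in the summed CPM per kb (y axis, percent) of the 12 liver libraries (x axis, 3 per group). Colours stand for genes. Ppp1r3b makes up 64.3 to 77.7% in fed wild type and 15.7 to 22.5% in fasted knockout libraries.

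Gys2 (chromosome 6, 142422613 to 142473109, minus strand), the liver glycogen synthase, was the one tested member whose response to fasting was called as different between labels. Its fed wild-type libraries had 289, 250.4 and 245 CPM and its fasted ones 502, 428 and 416 CPM, with no overlap. Fed knockout libraries had 79.3, 50.8 and 51.8 CPM and fasted knockout libraries 34.5, 66.8 and 40.1 CPM, which overlapped. Fasting raised it 1.71-fold in wild type (log2 0.78 ± 0.21, edgeR adjusted p = 0.014), while the change in labelled knockout liver was −0.36 ± 0.22 (adjusted p = 0.41). The difference of these changes was −1.14 ± 0.30 (adjusted p = 0.0237). Between labels Gys2 was 4.32-fold lower in fed liver (−2.11 ± 0.22, adjusted p = 2.01e-06) and 9.50-fold lower in fasted liver (−3.25 ± 0.23, adjusted p = 2.43e-08). The wild-type fasting call was lost without fed library b or c or fasted library a (adjusted p = 0.0502 to 0.0589), and the difference between labels without any of 6 single libraries (0.0552 to 0.0666), with values of −0.90 to −1.10 there.

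Gbe1 (chromosome 16, 70313949 to 70569716, plus strand), the branching enzyme, stood at 140 ± 10.3 CPM in fed and 105 ± 10.5 CPM in fasted wild type, 120 ± 15.1 CPM in fed and 139 ± 33.2 CPM in fasted knockout liver. The fasted wild-type libraries, at 96.7, 117 and 102 CPM, lay below the fed ones, at 128, 142 and 149 CPM, but the log2 difference of −0.41 ± 0.16 missed the threshold (adjusted p = 0.0686). In fasted liver the labelled knockout libraries (109, 134 and 174 CPM) were 1.32-fold higher (log2 0.40 ± 0.16, adjusted p = 0.0397). That call was lost without fasted wild-type library a or c or fasted knockout library b or c (adjusted p = 0.0536 to 0.242), and the value was 0.21 without knockout library c. The fed difference of −0.22 did not pass and became 0.15 with library sizes alone.

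Ugp2 (chromosome 11, 21321138 to 21371201, minus strand), which makes UDP-glucose, was the only tested member called as higher in fed labelled knockout liver. Wild-type libraries had 189, 173 and 194 CPM when fed and 281, 235 and 270.4 CPM when fasted. Knockout libraries had 355, 290.1 and 258 CPM when fed and 220.1, 319 and 288 CPM when fasted. The fed wild-type libraries were below all others, and the other 3 groups overlapped. The fed difference between labels was 0.70 ± 0.15 (1.62-fold, adjusted p = 0.00125), and fasting in wild type raised it 1.41-fold (0.50 ± 0.15, adjusted p = 0.0221). The fasting call was lost with library sizes alone (0.31, adjusted p = 0.108) and without any of 4 single libraries (adjusted p = 0.0551 to 0.0858). A noncoding gene on the opposite strand shares exon sequence with Ugp2, and the strand setting of the counting is not given in the sources used here, so reads of the overlap could not be assigned.

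Pygl (chromosome 12, 70190811 to 70231488, minus strand), the liver glycogen phosphorylase, stood at 429, 425 and 434 CPM in fed wild type. It had 256, 286 and 254 CPM in fasted wild type, 124, 104 and 96.1 CPM in fed knockout and 66.8, 89.3 and 82.7 CPM in fasted knockout libraries, and none of these groups overlapped. Fasting lowered it 1.62-fold in wild type (log2 −0.69 ± 0.13, edgeR adjusted p = 0.000915) in the same livers in which Gys2 rose. In labelled knockout liver the fasting difference of −0.44 ± 0.13 did not pass (adjusted p = 0.0897). Between labels Pygl was 3.98-fold lower in fed (−1.99 ± 0.13, adjusted p = 2.32e-08) and 3.33-fold lower in fasted liver (−1.74 ± 0.13, adjusted p = 3.90e-08).

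Counted together, fasting in wild type called 4 of the 8 tested members, Gys2 and Ugp2 higher and Ppp1r3b and Pygl lower, where 26.3% of all 23875 tested genes were called, 12.4% higher and 14% lower. Fasting in labelled knockout liver called 1 of 8, Ppp1r3b, against 1.39% of all genes (0.792% higher, 0.599% lower), and 4 of 8 without fasted knockout library b, all lower: Ppp1r3b, Ppp1r3c, Gys2 and Pygl. All genes called in that comparison went from 332 to 1242 (542 higher, 700 lower) without library b. They numbered 4 without fasted knockout library a, 4 without library c, and 15, 349 and 51 without fed knockout library a, b or c. Fasted knockout library b had the highest level of its group for Ppp1r3g, Ppp1r3b, Ppp1r3c, Gys2, Pygl and Ugp2, while its hepatocyte marker sum of 14617 CPM lay between those of the other two. Between labels, 5 of 8 were called in fed liver (Ugp2 higher, and Ppp1r3b, Ppp1r3c, Gys2 and Pygl lower), where 46.3% of all genes were (23.4% higher, 23.0% lower). In fasted liver the same 4 were lower and Gbe1 was higher, where 56.2% of all genes were called (28.2% higher, 28.1% lower). The difference of fasting changes was called for 1 of 8, against 12.1% of all genes (6.35% higher, 5.70% lower). The median log2 difference of the 8 was −0.55 for fasting in wild type, −0.40 for fasting in labelled knockout, −0.72 and −0.69 between labels in fed and fasted liver, against −0.01, −0.02, 0.01 and 0.01 over all tested genes. These comparisons share libraries: each group serves in 2 of the 4.

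Beside the falls between labels, 7 of the 8 hepatocyte markers fell in fed liver, with a median of −1.26 over the 8, and 8 of 8 in fasted liver, with a median of −1.29. Ppp1r3b, at −3.47 and −3.74, Gys2, at −2.11 and −3.25, and Pygl, at −1.99 and −1.74, lay further from 0 than these medians. Ppp1r3c, at −1.18 and −1.46, lay near them. All 8 macrophage markers fell on fasting in wild type (median −1.63), and 6 and 8 of 8 rose in fed and fasted labelled knockout liver. Dividing-cell markers (Mki67, Top2a, Plk1 and Foxm1) rose in labelled knockout liver, 4 of 4 in each state, and their sum reached at most 57.7 CPM. The part of these marker changes and of library b in the members' values was not tested.

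**Figure D3:**
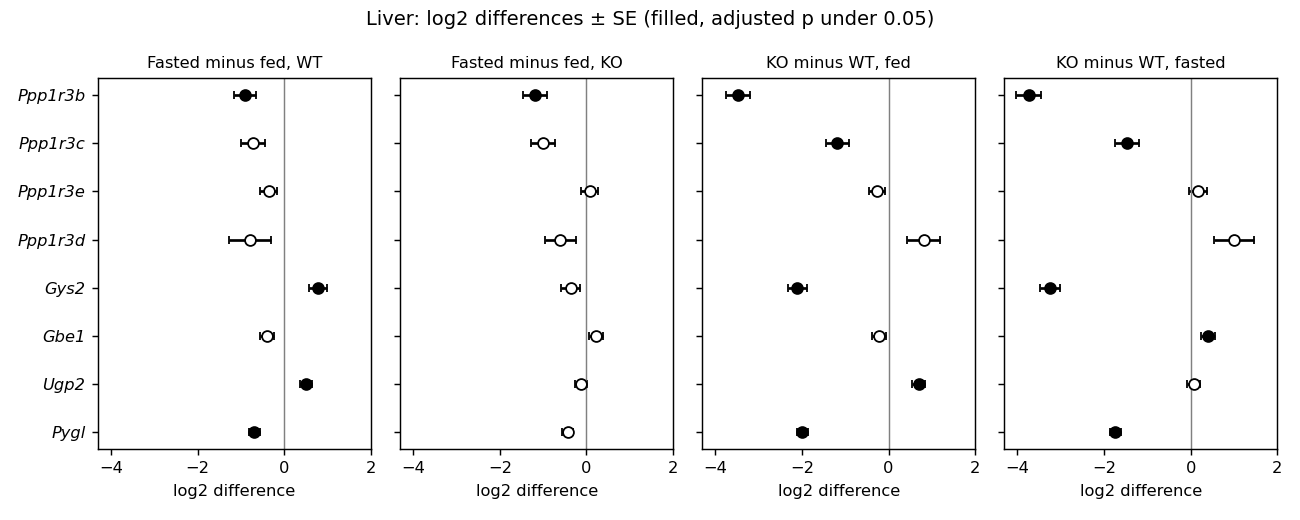
Log2 differences (x axis) of the 8 tested members (y axis) in the 4 liver comparisons, with SE bars from edgeR; filled points passed an adjusted p of 0.05. Ppp1r3b, Ppp1r3c, Gys2 and Pygl lie left of 0 in both comparisons of labels, down to −3.74.

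Ratios within a library do not depend on its scaling. Per kb of transcript, Gys2 to Pygl was 0.76, 0.66 and 0.64 in fed wild-type libraries and 2.21, 1.68 and 1.84 in fasted ones. It was 0.72, 0.55 and 0.61 in fed knockout and 0.58, 0.84 and 0.55 in fasted knockout libraries, which overlapped each other and fed wild type. These ratios are a description, with no test. Gys2 to Ugp2 was 1.43 ± 0.14 in fed and 1.73 ± 0.16 in fasted wild type, and 0.20 ± 0.02 and 0.17 ± 0.04 in fed and fasted knockout liver (SD, n = 3). Gys2 to Gbe1 was 2.35 ± 0.40 and 5.35 ± 0.99 in wild type and 0.63 ± 0.15 and 0.43 ± 0.17 in knockout liver. Ppp1r3b to Pygl was 0.58 ± 0.06 and 0.49 ± 0.09 in wild type, and 0.21 ± 0.02 and 0.12 ± 0.05 in labelled knockout liver.

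**Figure D4:**
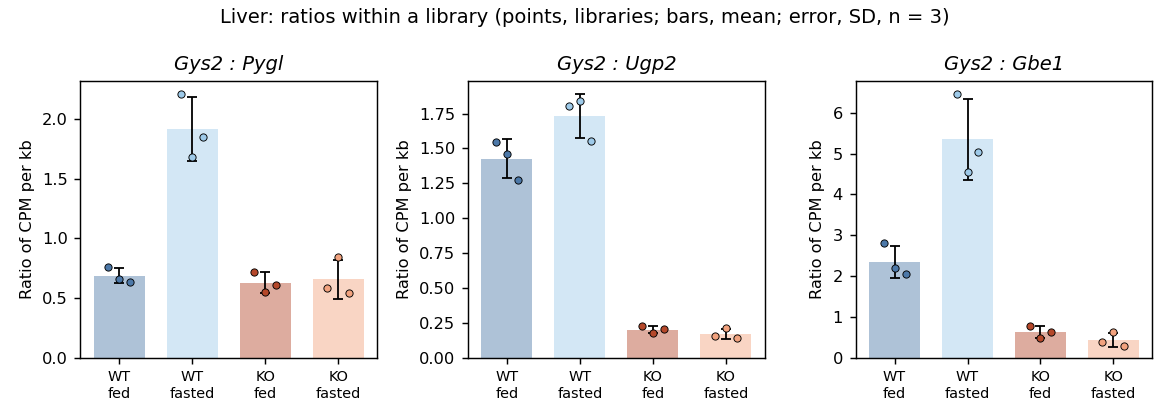
Ratios of Gys2 to Pygl, Ugp2 and Gbe1 in CPM per kb (y axis, linear, from 0) by liver group (x axis). Points are libraries, bars the mean and error bars the SD (n = 3). The ratio to Pygl is 1.68 to 2.21 in fasted wild type and 0.55 to 0.84 in the other groups.

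Per kb of transcript, the order in fed wild type was Pygl (143 CPM per kb), Gys2 (98.4), Ppp1r3b (82.8), Ugp2 (69.1), Gbe1 (42.3), Ppp1r3c (28.0), Ppp1r3e (3.63), Ppp1r3d (0.28) and Ppp1r3g (0). Gys2 and Ppp1r3b overlapped over libraries, as did Gbe1 and Ppp1r3c. With lengths over all exons Gys2 came first and Pygl second. In fasted wild type Gys2 led (169 CPM per kb), before Ugp2 (97.7) and Pygl (88.7), which overlapped, Ppp1r3b (43.9) overlapped Gbe1 (31.9), and Ppp1r3g (21.1 ± 3.75) overlapped Ppp1r3c (16.9 ± 3.43). In both labelled knockout groups Ugp2 led (112 and 103 CPM per kb) and Gbe1 came second (36.2 and 42.1), although in the fed group Gys2 took that place with lengths over all exons. Gbe1 did not differ beyond its spread from Pygl in fed knockout liver, at 36.1 ± 4.75 CPM per kb. There Ppp1r3g (2.78 ± 1.49) overlapped Ppp1r3e (3.01 ± 0.28), and in fasted knockout liver Ppp1r3g, Ppp1r3b and Ppp1r3e overlapped at 3.29, 3.28 and 3.17 CPM per kb.

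Other genes of glycogen turnover were read from lists chosen by role. Their counts stand against the shares of all tested genes given above: for fasting in wild type 12.4% were higher and 14% lower, between labels in fed liver 23.4% and 23.0%, and between labels in fasted liver 28.2% and 28.1%. Of the genes for synthesis and glucose trapping, 5 of 9 fell on fasting in wild type and none rose. Hk2, a hexokinase low in hepatocytes, fell by 2.40 ± 0.37, and Gys1, the synthase of muscle and other tissues, fell by 0.77 ± 0.19 (edgeR adjusted p = 0.00693), opposite to Gys2. All 8 macrophage markers fell in the same comparison (median −1.63). The part of other cell types in the values of Hk2 and Gys1 was not tested. Between labels 4 of the 9 were higher and 2 lower in fed liver, and 4 higher and 1 lower in fasted liver. Gyg, which encodes the glycogenin that primes glycogen, was higher by 1.22 ± 0.15 and 1.29 ± 0.15, and Pgm2, a phosphoglucomutase, by 1.81 ± 0.16 and 2.78 ± 0.17.

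Of the 13 genes for breakdown and glucose release 12 were tested, and fasting in wild type raised 3 and lowered 1 (12.4% and 14% of all genes). G6pc, the glucose 6-phosphatase that lets glucose leave the liver, rose by 1.88 ± 0.57 (adjusted p = 0.0238), Gaa, the lysosomal glucosidase, by 0.78 ± 0.11, and Pygb, the brain phosphorylase, fell by 1.04 ± 0.18. Between labels 6 of 12 were lower and 2 higher in fed liver, and 6 lower and 1 higher in fasted liver, where 23.0% and 28.1% of all genes were lower. G6pc was lower by 2.36 ± 0.58 and 5.70 ± 0.68. Slc37a4, the transporter of glucose 6-phosphate, was lower by 2.39 ± 0.19 and 3.01 ± 0.20, and Slc2a2, the glucose transporter of the hepatocyte membrane, by 2.27 ± 0.29 and 2.82 ± 0.30. Pygb was higher by 0.81 ± 0.16 and 1.13 ± 0.18, opposite to Pygl. Pygb is also made outside hepatocytes, and the macrophage markers given above moved in the same directions. The part of other cell types in the values of Pygb was not tested.

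Catalytic subunits of protein phosphatase 1 changed little. Ppp1ca and Ppp1cb passed in none of the 5 liver comparisons, with log2 differences of −0.21 to 0.32 and −0.12 to 0.17, and Ppp1cc rose by 0.36 ± 0.12 on fasting in wild type and was lower by 0.61 ± 0.12 in fasted labelled knockout liver. In the list of phosphatase 1 genes and kinases, 13 of 16 tested, 3 rose and 4 fell on fasting in wild type (12.4% and 14% of all genes). In labelled knockout liver 2 were higher and 3 lower when fed, and 3 higher and 2 lower when fasted. Prkag2, a regulatory subunit of the AMP-activated kinase, was lower by 1.03 ± 0.16 and 1.71 ± 0.16. Of 4 glycogen-associated proteins Stbd1, which binds glycogen, rose by 1.01 ± 0.15 on fasting in wild type, and its change differed between labels (−1.06 ± 0.22, adjusted p = 0.0054). Of 12 receptors and signalling genes, 6 rose and 3 fell on fasting in wild type, against the same shares. The 4 with the smallest p were Ppargc1a (2.25 ± 0.28), Gcgr, the glucagon receptor (0.77 ± 0.11), Insr, the insulin receptor (0.73 ± 0.11), and Irs2 (2.39 ± 0.36). Their fasting changes differed between labels by −3.46 ± 0.39, −0.88 ± 0.15, −1.06 ± 0.15 and −2.46 ± 0.49. These 4 were picked by their wild-type change, which enters that difference, so the values are a description. Over the whole list the difference was called lower for 5 and higher for 1 of 12, against 5.70% and 6.35% of all genes. Fasted labelled knockout liver had 9 of the 12 lower, where 28.1% of all genes were, among them Gcgr by 1.87 ± 0.11.

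Genes with the liver pattern most like each member were sought among 10666 genes by Pearson's r over the log2 CPM of the 12 libraries, whose group differences all of them share. For Ppp1r3g these were Tmc7, Creg1, C9orf72, Polr3gl, Ephx1, Lpin2, Pskh1 and Hps4 (r = 0.95 to 0.96). All 8 were lowest in fed and highest in fasted wild type, which follows from how they were picked. Lpin2, a phosphatidate phosphatase, stood at 94.2 and 579 CPM in fed and fasted wild type and at 264 and 279 CPM in fed and fasted knockout liver. None of the 8 was at 0 in fed wild type. For Gys2 they were Isoc2a, Masp2, Upb1 and Aspdh (r = 0.99 to 1.00), for Pygl Ebp, Hlf, Adra1b and Lin7a (0.99), for Ppp1r3b Sdr9c7, Cyp2c68, Tmie and Smarcd2 (0.99) and for Ppp1r3c Mpdz, Kdr, Zfp148 and Pde8a (0.94 to 0.95). Adra1b encodes an adrenergic receptor of hepatocytes. For Ppp1r3d, with its low counts, they were Pik3r5, Ctbp2, Ggta1 and Arhgef6 (0.92 to 0.95), for Ugp2 Arrdc4, Myh14, Ercc5 and Htatip2 (0.88 to 0.93), for Gbe1 Taf3, Hacd2, Slc25a17 and Itprid2 (0.88 to 0.94) and for Ppp1r3e Zdhhc16, Ssx2ip, Mrps25 and Tsr1 (0.82 to 0.84).

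In MEFs the values deposited were on a variance-stabilized log2 scale with a lowest value of 4.17, from which whole counts could be recovered, 19345029 to 21245006 per library. MEFs lacked the hepatocyte markers (summed level at most 1.6 CPM) and summed fibroblast markers stood at 6387 to 11645 CPM. The headings of the columns went against 2 measures of the medium. Chac1, a gene of the amino acid stress response, stood at 9.29 and 10.4 in the basal and deprived columns headed GFP but at 12.3 and 13.4 in those headed CRE, and at 13.1 and 13.8 after 1 h and 4 h in GFP but 10.3 and 11.5 in CRE columns. Mat2a, which encodes the enzyme that uses methionine and was picked after its values were seen, stood at 12.3 and 12.2 in basal and deprived GFP and at 11.8 and 11.4 in replenished CRE columns, but at 13.6 in both basal and deprived CRE columns and 13.9 and 13.8 in replenished GFP columns. Library 3 of the 4 h CRE column stood apart, with Mat2a at 10.8 against 11.7 in both others. Over 13914 genes the CRE minus GFP differences correlated at r = 0.91 between basal and deprived and 0.87 between 1 h and 4 h, but at −0.55 to −0.61 between the former and the latter. The groups are therefore named by their headings only, and the medium and the virus cannot be told apart where the headings may not hold.

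Of the 9 members 5 were at or near 0 in MEFs. Recovered counts per library were 0 or 1 for Ppp1r3g, Ppp1r3b and Pygl, 0 to 2 for Gys2 and 0 to 4 for Ppp1r3c, too few to test. Ppp1r3d, Ppp1r3e, Ugp2 and Gbe1 were tested. Gys1 and Pygb, the synthase and phosphorylase of other tissues, were present at 10.8 to 11.3 and 10.9 to 11.9 over all 24 libraries. Among the members Ugp2 was highest per length, at 49.9 to 72.0 CPM per kb in the group means, before Ppp1r3e (4.47 to 10.2) and Gbe1 (4.87 to 8.08), which overlapped, and Ppp1r3d (0.74 to 1.20).

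Basal and deprived columns headed CRE were lower than those headed GFP for 4 of 4 tested members in each, where 58.3% of all genes were called at basal (29.7% higher, 28.6% lower) and 62.6% in the deprived columns (32.0% higher, 30.6% lower). Ppp1r3e stood at 8.48, 8.53 and 8.75 in basal GFP and 8.24, 8.24 and 8.19 in basal CRE columns, with no overlap (log2 difference −0.36 ± 0.07, limma adjusted p = 0.000112). Gbe1 stood at 9.19, 9.15 and 9.04 against 8.51, 8.57 and 8.68 (−0.54 ± 0.07, adjusted p = 1.89e-08). Ugp2 was lower by 0.45 ± 0.04 and Ppp1r3d by 0.47 ± 0.10. In deprived columns the differences were −0.40 ± 0.07 for Ppp1r3e, −0.38 ± 0.07 for Gbe1, −0.51 ± 0.04 for Ugp2 and −0.45 ± 0.10 for Ppp1r3d.

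After replenishment columns headed CRE were higher for 2 members at 1 h, Ppp1r3e and Gbe1, and for 3 at 4 h, with Ugp2. Ppp1r3e stood at 7.66, 7.78 and 7.83 in GFP and 8.76, 8.89 and 8.75 in CRE columns at 1 h (1.04 ± 0.07, limma adjusted p = 2.06e-13), and was higher by 0.94 ± 0.07 at 4 h. Gbe1 stood at 8.56, 8.55 and 8.48 against 9.06, 9.02 and 8.91 at 1 h (0.47 ± 0.07, adjusted p = 3.53e-07), and was higher by 0.38 ± 0.07 at 4 h. Ugp2 differed by −0.06 ± 0.04 at 1 h (adjusted p = 0.305) and was higher by 0.17 ± 0.04 at 4 h. Ppp1r3d differed by 0.03 ± 0.10 (adjusted p = 0.822) and 0.22 ± 0.10 (0.0577). Called were thus 2 of 4 at 1 h and 3 of 4 at 4 h, where 55.0% (26.9% higher, 28.1% lower) and 59.8% (30.8% higher, 29.0% lower) of all genes were. Without library 3 of the 4 h CRE column the 4 h differences were 1.00 for Ppp1r3e, 0.33 for Gbe1, 0.14 for Ugp2 and 0.19 for Ppp1r3d, and the same 3 were called.

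Within columns headed GFP, 1 h of replenishment against deprivation lowered 3 of 4, namely Ppp1r3e by 0.79 ± 0.07, Gbe1 by 0.69 ± 0.07 and Ugp2 by 0.32 ± 0.04 (59.5% of all genes called, 30.7% higher and 28.8% lower). At 4 h all 4 were lower, from Ppp1r3d by 0.45 ± 0.10 to Ppp1r3e by 0.68 ± 0.07 (66.1% called, 33.3% higher and 32.8% lower). Within columns headed CRE the same step raised 4 of 4 at 1 h, Ppp1r3e by 0.66 ± 0.07, Ppp1r3d by 0.49 ± 0.10, Gbe1 by 0.16 ± 0.07 and Ugp2 by 0.14 ± 0.04 (60.1% called, 30.0% higher and 30.1% lower). Ugp2 was not called without library 1 of the 1 h columns (adjusted p = 0.091), and Gbe1 without any of 4 single libraries (0.0628 to 0.179). At 4 h it raised 3 of 4, Ppp1r3e, Gbe1 and Ugp2 (51.8% called, 26.0% higher and 25.9% lower), and Ugp2 was not called without library 3 of the 4 h columns (0.093, adjusted p = 0.0975) or library 1 or 3 of the deprived columns (adjusted p = 0.0794 and 0.0535).

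Against basal, 1 h of replenishment lowered 3 of 4 in columns headed GFP (58.8% called, 29.2% higher and 29.6% lower) and raised 4 of 4 in those headed CRE (48.2% called, 23.2% higher and 25% lower). In the latter Ugp2 was not called without library 3 of the basal columns (limma adjusted p = 0.154) or library 1 of the 1 h columns (0.106), which left 3 of 4. Between 1 h and 4 h, GFP columns fell for Ppp1r3d (−0.46 ± 0.10) and Ugp2 (−0.24 ± 0.04) and rose for Gbe1 (0.23 ± 0.07; 36.7% called, 17.9% higher and 18.8% lower). The call of Gbe1 was lost without library 2 of the 4 h GFP columns (0.18, adjusted p = 0.0540). Columns headed CRE fell for Ppp1r3d (−0.27 ± 0.10, adjusted p = 0.0486; 25.4% called, 13.4% higher and 12% lower), a call lost without library 3 of the 4 h columns (adjusted p = 0.0558) and without any of 4 other libraries. Deprivation against basal called 0 of 4 by limma in columns headed GFP, with 0 of 4 at an unadjusted p under 0.05 and 0 of 4 by edgeR on the recovered counts (23.6% of all genes called, 10.0% higher and 13.6% lower). In CRE columns it raised Gbe1 alone (0.25 ± 0.07, adjusted p = 0.00395; 28.5% called, 15.0% higher and 13.5% lower).

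The change on deprivation differed between headings for 0 of 4 by limma, with 0 of 4 at an unadjusted p under 0.05 and 0 of 4 by edgeR (4.78% of all genes called, 3.23% higher and 1.55% lower). That from basal to 1 h differed for 4 of 4, from 0.39 ± 0.06 for Ugp2 to 1.41 ± 0.11 for Ppp1r3e (64.0% called, 32.3% higher and 31.7% lower). That from deprived to 4 h also differed for 4 of 4, from 0.67 ± 0.14 for Ppp1r3d to 1.35 ± 0.11 for Ppp1r3e (69.1% called, 35.1% higher and 34.0% lower). These comparisons share columns. The summed amino acid stress markers moved with these differences, at 903 to 1225 CPM in basal and deprived GFP, 1794 to 2411 in basal and deprived CRE, 2115 to 2738 in replenished GFP and 1344 to 1691 CPM in replenished CRE columns. Columns with the lower sum within a pair of headings had the higher Ppp1r3e and Gbe1 in all 4 pairs, and the part of this response in the members' values was not tested.

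**Figure D5:**
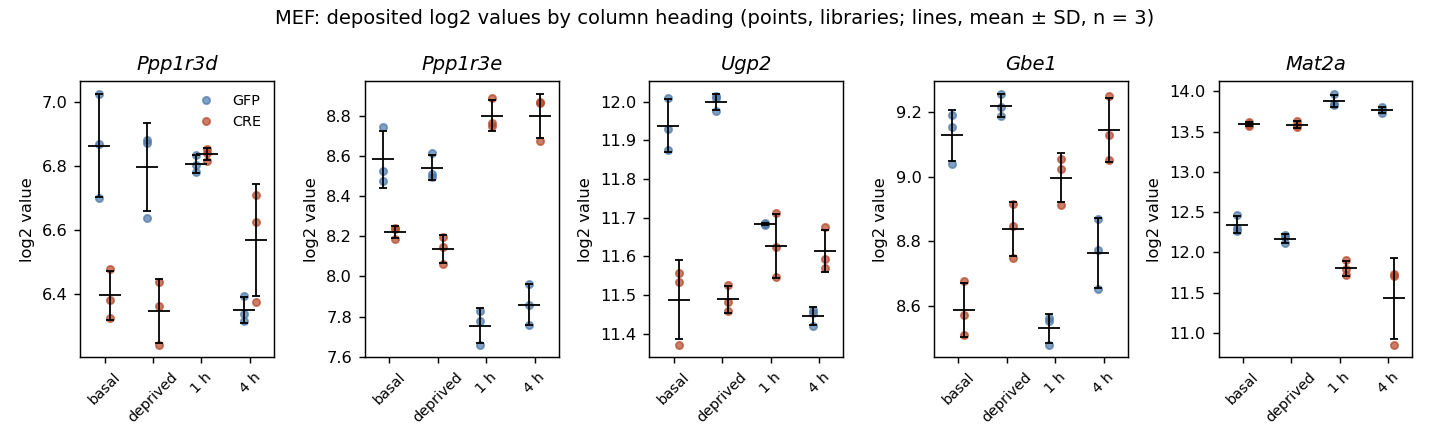
Deposited log2 values (y axis, not from 0) of Ppp1r3d, Ppp1r3e, Ugp2, Gbe1 and, for comparison, Mat2a by column heading (x axis). Points are libraries, GFP blue and CRE red, with mean and SD lines (n = 3). Ppp1r3e is higher in GFP at basal and deprived and in CRE at 1 h and 4 h, while Mat2a has the opposite order.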

How the data were processed

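RNA with poly(A) tails was sequenced from 12 liver samples and 24 MEF samples. The liver table that the authors deposited holds raw counts. Per the submitters' processing notes, HISAT2, Subread, DESeq2 and edgeR were used for liver and STAR 2.7.10b, featureCounts, DESeq2 and limma for MEFs, with build mm10. The MEF table deposited by the authors holds log2 values stabilized for variance. Strand settings and filters are not given in the sources used here. Column names of liver give a group without a number, so its libraries were lettered a to c, whereas MEF names run from 1 to 3. The number of columns not used was 0. NONCODE identifiers were 87774 of the 136300 liver features, with 20.5 to 24.8% of counts, and 48144 of 48526 Ensembl identifiers were found in GENCODE M21.

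In liver, filterByExpr kept 23875 genes. They were scaled by the trimmed mean of M-values (factors 0.801 to 1.22) and fitted with edgeR 4.0.16 under R 4.3.3, using the quasi-likelihood F test and a mean for each group of the 12 libraries. A standard error is the size of the log2 change over the root of its F statistic, and intervals of 95% take it as normal. In MEFs, limma 3.58.1 (trend, robust) was fitted to 24 libraries and to 13914 genes with a mean of 1 or more above the lowest value, 4.17. Adjustment followed Benjamini-Hochberg across every tested gene, and calls were made under 0.05. Reversing the MEF transformation gave whole numbers (within 0.01) for 100% of values. These served for depth and for edgeR as an alternative. Lengths are those of the longest protein-coding transcript.

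Members and lists were chosen with earlier results of these data known. The text names all members, the 4 smallest adjusted p of each list and comparison, a few genes set by name (Gys1, Pygb, G6pc, Gyg, the Ppp1c genes and others), 8 genes most like Ppp1r3g and 4 most like every other member. Some genes of the lists are not reported here. Alternatives were DESeq2 1.42.0, other scalings and filters, other sets of libraries and, for MEFs, the replicate number as a block. Tests of the MEF change from basal to 1 h and from deprived to 4 h between headings were added after the data were seen. Libraries of the same number did not deviate together (correlations of −0.16 to 0.23). In simulated data made like wild-type fasting, edgeR found 66 of 100 genes altered by 1 log2 unit and 93 of 100 altered by 2, with 14 false calls in 23206 genes. In data made like basal MEFs, limma found 95 of 100 altered by 0.5, with 3 false calls in 13914 genes. Only a small set of genes was altered in either simulation, with no other difference between groups. In the real comparisons 26.3% of genes were called in liver and 58.3% in MEFs, so these rates need not hold there.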

Additional observations from a re-analysis of the deposited data

Results flagged for a closer look

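The fasting change of Gys2 in liver differed between labels by −1.14 on the log2 scale, with 448 ± 46.7 CPM in fasted against 262 ± 23.9 CPM in fed wild type and 47.2 ± 17.2 against 60.6 ± 16.2 CPM in labelled knockout liver (SD, n = 3). In MEFs the change from the basal to the 1 h columns differed between CRE and GFP headings by 0.50 for Ppp1r3d, 1.41 for Ppp1r3e, 0.39 for Ugp2 and 1.01 for Gbe1. The change from the deprived to the 4 h columns differed by 0.67 for Ppp1r3d, 1.35 for Ppp1r3e, 0.68 for Ugp2 and 0.76 for Gbe1. All 9 differences passed an adjusted p of 0.05, by edgeR for Gys2 and by limma for the rest. So did 12.1% of all tested genes in liver, and in MEFs 64.0% for the change to 1 h and 69.1% for that to 4 h. The Gys2 call was lost without any of several single libraries (edgeR adjusted p = 0.0552 to 0.0666). The MEF values rest on headings that Chac1 and Mat2a went against.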

How the results depend on the processing

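No paired analysis was possible in liver because its columns carry no replicate numbers. In MEFs the replicate number as a block left the count of called members at 0 for 4 h against 1 h in columns headed CRE, where it was 1 without the block (Ppp1r3d, adjusted p = 0.0547 against 0.0486), and at the same count in every other MEF comparison. That count was also 0 with no filter on low values and with only the compared groups, where 2224 of all genes were called against 3539. All genes called for the difference of deprivation changes numbered 665, 419 with no filter, 1111 with only the compared groups and 360 to 777 without single libraries (360 without library 1 of deprived GFP, and 387 to 436 without library 3 of basal GFP, 2 of deprived GFP, 1 of basal CRE or 2 or 3 of deprived CRE columns). For fasting in labelled knockout liver, 1 member was called, 3 with DESeq2, 2 with library sizes alone, 2 with no filter and 0 with only the compared groups, while all called genes numbered 332, 937 with DESeq2, 1558 with no filter, 518 with Ensembl genes only and 27 with only the compared groups. For fasted liver between labels, 5 members were called and 8 with library sizes alone. The difference of fasting changes was called for 1, and for 2 with DESeq2, library sizes alone, no filter or Ensembl genes only. The member added to Gys2 was Ugp2 with DESeq2 or Ensembl genes only, and Gbe1 with library sizes alone or no filter. The mean of Ppp1r3g in fasted wild type was 40.5 CPM with library sizes alone and 66.3 CPM with Ensembl genes only, and 45.6 to 54.4 CPM without single libraries, a choice made after seeing the data. Library sizes alone moved the median log2 difference of all genes to −0.19 for fasting in wild type, 0.39 and 0.52 between labels in fed and fasted liver and 0.15 for the difference of fasting changes, and turned the split of calls between labels to 9968 higher and 3092 lower in fed and 11731 and 3576 in fasted liver, from 5577 and 5483 and from 6722 and 6700. For fasting in wild type the split went from 2957 higher and 3333 lower to 1788 and 5216. It went from 189 and 143 to 160 and 275 for fasting in labelled knockout and from 1517 and 1362 to 2232 and 1006 for the difference of fasting changes. With it Ppp1r3e (0.11) and Gbe1 (0.15) changed sign in fed liver, both below the median of 0.39 and neither called. Leaving out 1 library at a time gave 1 to 4 called members for fasting in wild type, 0 to 4 for fasting in labelled knockout, 4 to 5 and 5 to 5 between labels in fasted and fed liver, 0 to 2 for the difference of fasting changes, 0 to 1 for 4 h against 1 h in CRE columns and 2 to 4 for 1 h against deprived in CRE columns. Values that changed sign were not called in either fit. With each MEF library shifted to 1 median they were Ugp2 at 1 h between headings (0.011) and for deprivation in CRE (−0.012), Ppp1r3d for 1 h against deprived in GFP (−0.066) and Ppp1r3e for 4 h against 1 h in CRE (−0.017, and −0.0020 with edgeR). Leaving out single libraries gave, in liver, Ugp2 −0.24 to 0.012 on fasting in labelled knockout and −0.042 to 0.21 between labels when fasted, and, for the difference of fasting changes, Ppp1r3b −0.80 to 0.0089 and Ppp1r3d −0.17 to 0.50. In MEFs it gave Ppp1r3d −0.15 to 0.013 for deprivation in GFP, −0.093 to 0.0045 for deprivation in CRE, −0.070 to 0.052 for 1 h against deprived in GFP, −0.14 to 0.022 for 1 h against basal in GFP and −0.061 to 0.10 for the difference of deprivation changes. It gave Ppp1r3e −0.095 to 0.039 for deprivation in GFP, −0.032 to 0.064 for 4 h against 1 h in CRE and −0.12 to 0.0099 for the difference of deprivation changes, and Ugp2 −0.057 to 0.036 for deprivation in CRE and −0.054 to 0.028 for 4 h against 1 h in CRE. The causes were not tested. The low counts of Ppp1r3d, 3 to 24 in liver, limit what a test of it can show.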
